A study of Homo sapiens with 24 samples.

Results

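The 59 genes described here encode proteins of the mitotic spindle, the kinetochore and the division machinery, and they were chosen by name from these roles, with no measured value in the rule. The promoter region of a gene was the H3K4me3 region with the highest mean among those that overlap 2 kb either side of any start site of its protein-coding transcripts in GENCODE 44, on the hg38 build. All 59 genes had such a region, among 14568 protein-coding genes with one out of 19676 in the annotation, and the 59 regions were distinct. Trimethylation of histone H3 at lysine 4 (H3K4me3) was profiled in EndoC-βH3 cells by MINT-ChIP, a ChIP-seq method that tags the chromatin of each sample with its own barcode, so that samples can be mixed for the immunoprecipitation. There were 4 non-senescent and 4 senescent samples, each of 500000 cells.

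EndoC-βH3 is a beta-like cell line from a fetal human pancreas, immortalised with hTERT and the SV40 Large T-antigen, a viral protein that holds Rb and p53 inactive. The cells of both groups carried CreER and were labelled with the genotype WT. Non-senescent samples were controls that kept both transgenes. Senescent samples had 3 weeks of 4-hydroxytamoxifen (4-OHT), which activates CreER to cut out both transgenes. The labels give 1 mM 4-OHT, while the methods of the study give the same figure in μM. All samples came from a single line, and nothing states that replicates of a state were separate cultures.

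For each region the values used here hold a single mean normalized count, taken over the H3K4me3 samples of both states together, with no value for any sample. The level in senescent cells therefore could not be set against the level in non-senescent cells, no spread between replicates could be given, and no test was run. The depth per sample is unknown. Each level below is an average over both states, and what it would be in either state was not tested. A mean normalized count grows with the width of a region, so genes are compared with each other by count per kb, the mean divided by the width in kb. Count per kb still rose with width, as given below, so it does not remove the effect of width in full.

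Markers of the labelled cell type were checked first. Of 12 beta cell markers, 11 had a promoter region, from 38.1 per kb at ISL1 down to 14.0 at INS, 11.1 at ABCC8 and 7.56 at IAPP, and MAFA had none in the regions used here. Of the alpha cell markers, IRX2 had 31.5 per kb, above INS and NKX6-1 (25.2), and GCG had 6.99. Of 4 acinar markers, 3 had a region, at no more than 6.59 per kb, while the 3 duct markers lay between 7.09 and 11.0 per kb, close to ABCC8 and IAPP. Of 3 fibroblast markers, 2 had a region, at 6.28 (COL1A1) and 8.16 per kb (PDGFRA), and none of the 3 blood cell markers had one.

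The genes of the list are transcribed late in the cell cycle, as cells prepare to divide. In resting cells the DREAM complex, which contains Rb-related pocket proteins, occupies many of their promoters and holds them silent, and in cycling cells the MYBL2 and FOXM1 factors take its place on the same MuvB core. The core contacts a short element, the CHR (cell cycle genes homology region), often beside boxes for the factor NF-Y, whereas promoters of DNA replication genes are better known for E2F elements. H3K4me3 is laid down around start sites of active and poised genes, mostly on the first nucleosomes downstream.

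Promoters of 9 members are shown because this kind of gene is the textbook case for these elements: the mitotic kinases and cyclins (CDK1, CCNB1, CCNB2, PLK1), the passenger kinase AURKB, the checkpoint kinase BUB1, the central spindle kinesin KIF23, the topoisomerase TOP2A, and CDCA3, which takes part in the destruction of WEE1. Sequences are from RefSeq on GRCh38.p14, 200 bases each, made of the 170 bases before the start and the first 30 bases from it on, written 5′ to 3′ along the gene. Capitals mark the CHR word TTTGAA, its variants (TTTAAA and TTCGAA), the NF-Y box CCAAT and an E2F word, on either strand, so that the reverse complements (TTCAAA for the CHR, ATTGG for the NF-Y box) are also in capitals. Positions give the leftmost base of a match, with the first transcribed base as 1 and the base before it as -1.
CDK1: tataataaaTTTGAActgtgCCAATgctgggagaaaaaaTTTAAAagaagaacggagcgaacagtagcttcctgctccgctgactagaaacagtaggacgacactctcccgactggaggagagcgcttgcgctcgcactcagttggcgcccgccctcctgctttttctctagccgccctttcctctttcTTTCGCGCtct
CCNB1: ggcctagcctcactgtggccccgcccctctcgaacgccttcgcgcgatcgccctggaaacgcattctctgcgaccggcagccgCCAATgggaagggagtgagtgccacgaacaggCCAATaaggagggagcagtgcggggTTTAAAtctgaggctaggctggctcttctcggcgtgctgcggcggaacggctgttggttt
CCNB2: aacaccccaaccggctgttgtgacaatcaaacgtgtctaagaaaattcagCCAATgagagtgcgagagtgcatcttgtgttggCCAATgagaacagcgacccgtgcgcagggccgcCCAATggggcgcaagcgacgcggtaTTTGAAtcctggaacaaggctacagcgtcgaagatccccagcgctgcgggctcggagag
PLK1: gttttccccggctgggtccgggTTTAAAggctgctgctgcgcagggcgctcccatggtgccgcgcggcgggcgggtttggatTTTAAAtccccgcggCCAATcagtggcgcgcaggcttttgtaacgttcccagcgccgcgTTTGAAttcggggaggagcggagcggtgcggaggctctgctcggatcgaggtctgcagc
AURKB: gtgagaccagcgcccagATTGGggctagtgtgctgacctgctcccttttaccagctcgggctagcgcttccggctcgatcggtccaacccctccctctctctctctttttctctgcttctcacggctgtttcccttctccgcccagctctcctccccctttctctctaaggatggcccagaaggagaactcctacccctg
BUB1: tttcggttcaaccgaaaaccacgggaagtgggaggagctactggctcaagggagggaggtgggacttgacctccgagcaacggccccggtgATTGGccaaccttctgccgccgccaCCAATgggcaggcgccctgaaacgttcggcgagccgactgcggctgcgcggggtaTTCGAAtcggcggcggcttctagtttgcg
KIF23: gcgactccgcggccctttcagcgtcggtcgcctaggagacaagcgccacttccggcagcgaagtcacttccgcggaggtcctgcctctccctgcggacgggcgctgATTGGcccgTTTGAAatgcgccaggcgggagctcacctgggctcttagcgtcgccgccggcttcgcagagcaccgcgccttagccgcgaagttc
TOP2A: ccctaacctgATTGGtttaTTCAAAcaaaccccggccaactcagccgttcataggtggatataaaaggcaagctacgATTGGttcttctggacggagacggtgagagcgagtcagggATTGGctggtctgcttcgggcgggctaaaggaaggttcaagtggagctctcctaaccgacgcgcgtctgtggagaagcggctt
CDCA3: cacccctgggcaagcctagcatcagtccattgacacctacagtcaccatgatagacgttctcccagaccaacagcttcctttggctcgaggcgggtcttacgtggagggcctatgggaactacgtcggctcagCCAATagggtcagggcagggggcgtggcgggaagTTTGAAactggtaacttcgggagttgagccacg

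They lie at chr10:60778161-60778360 on the plus strand (CDK1), chr5:69166980-69167179 on the plus strand (CCNB1), chr15:59104976-59105175 on the plus strand (CCNB2), chr16:23678719-23678918 on the plus strand (PLK1) and chr17:8210196-8210395 on the minus strand (AURKB). The others lie at chr2:110678034-110678233 on the minus strand (BUB1), chr15:69414179-69414378 on the plus strand (KIF23), chr17:40417867-40418066 on the minus strand (TOP2A) and chr12:6851257-6851456 on the minus strand (CDCA3).

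The CHR of CCNB2 and of PLK1 began at position -29, that of CDCA3 at -3 and that of KIF23 at -55. TOP2A held its shown copy farther away, at -151, on the opposite strand. CCNB1 and BUB1 had no TTTGAA in the window, but CCNB1 held the variant TTTAAA at -30, after a pair of CCAAT boxes at -87 and -55, and BUB1 held TTCGAA at 2. CCNB2 held 3 CCAAT boxes in the shown stretch, at -120, -87 and -54.

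The RefSeq start lay within 50 bp of the Ensembl canonical start in 46 of 49 members. The exceptions were CDK1, whose RefSeq start was at -147 bp from the canonical one, AURKB at 350 bp and CKAP2 at 510 bp, where a positive value lies inside the gene. At its RefSeq start CDK1 held TTTGAA at -161, and AURKB held neither the CHR nor a variant and a single CCAAT at -153. The hg38 stretches at the canonical starts of AURKB (chr17:8210546-8210745, minus strand) and CDK1 (chr10:60778308-60778507, plus strand), with the same length and capitals, are therefore shown as well.
AURKB, canonical: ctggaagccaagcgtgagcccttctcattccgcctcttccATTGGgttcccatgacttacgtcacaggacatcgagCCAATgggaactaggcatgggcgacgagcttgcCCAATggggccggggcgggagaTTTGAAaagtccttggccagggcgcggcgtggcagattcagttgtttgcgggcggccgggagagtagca
CDK1, canonical: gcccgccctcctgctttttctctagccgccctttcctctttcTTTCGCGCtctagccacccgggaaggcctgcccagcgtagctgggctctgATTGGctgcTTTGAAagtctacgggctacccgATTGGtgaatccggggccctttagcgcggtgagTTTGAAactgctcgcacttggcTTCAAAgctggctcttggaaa

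There AURKB held TTTGAA at -39, after CCAAT boxes at -130, -94 and -61. CDK1 held TTTGAA at -69 and -13 and again at 10 on the opposite strand, with CCAAT boxes at -78 and -46 and the E2F word at -128. All these matches are descriptions of the letters, not sites shown to be bound.

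Across the list, RefSeq promoters of 300 bases (250 before to 50 after the start) were matched for 49 members, and 15794 other protein-coding genes gave the background. TTTGAA was present on either strand in 37 of 49 member promoters (75.5%, 95% Wilson interval 61.9 to 85.4%), against 11.9% of the other promoters. Within 75 bases before to 25 bases after the start, 30 members (61.2%) held it, against 3.30% of the others. CCAAT was present in 38 of 49 (77.6%, 64.1 to 87.0%) against 36.2%, and at least 2 copies in 51.0% against 12.4%. Both words together were found in 29 members (59.2%) and in 4.86% of the others. These intervals cover counting error only. Matches of different words may overlap, and each was counted.

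The share of other promoters with TTTGAA was 9.69% among those with an H3K4me3 region, 9.76% among those whose region mean lay within the members' quartiles, and 9.73% among those whose 300 bases had a GC content within the members' quartiles (56.3 to 64.7%). For CCAAT the shares in the last 2 of these sets were 38.5% and 40.0%. The member shares thus lay above all of these backgrounds by more than their counting error.

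Both words gathered near the start. In bins of 25 bases, CCAAT was most frequent at positions -75 to -50, in 48.98% of members against 9.45% of the others, and TTTGAA in the last 25 bases before the start, in 28.6% against 0.658%. A pair of CCAAT boxes on the same strand whose first bases lay 30 to 36 bases apart occurred in 7 members (14.3%) against 1.73% of the others. CCNB2 and CCNB1 show such pairs in the sequences above.

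**Figure D1:**
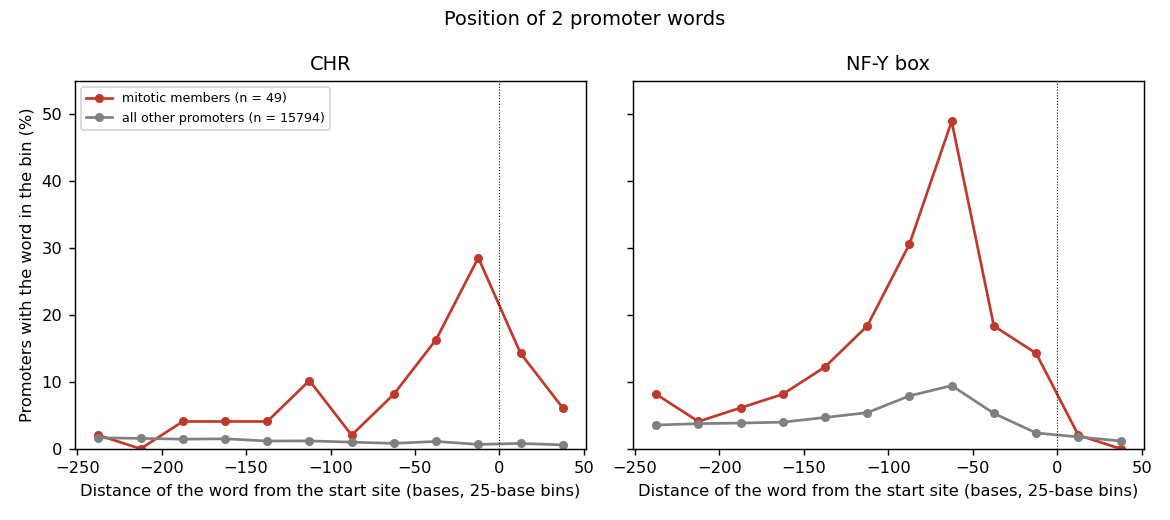
Share of promoters (%) holding the CHR (left) or the NF-Y box (right) in each 25-base bin of distance from the start site, for 49 mitotic members (red) and 15794 other promoters (grey). In members the NF-Y box peaks at 48.98% between positions -75 and -50, and the CHR peaks closer, at 28.6% in the last 25 bases.

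The 12 members with a RefSeq promoter but no TTTGAA were AURKB, BUB1, CCNB1, SPC24, CENPE, CENPK, KIF20A, KIF2C, CKAP2, NCAPH, PTTG1 and SGO1. Of these, 8 held TTTAAA or TTCGAA, words searched after the sequences had been seen, and with them 45 of 49 members (91.8%) held some form of the element, against 20.5% of the other promoters. The 4 with no form were AURKB, SPC24, CENPK and CKAP2, of which AURKB and CKAP2 held TTTGAA at their canonical starts. CENPE, KIF2C and CKAP2 had neither TTTGAA nor CCAAT at the RefSeq start. AURKA, BUB3, TTK, TPX2, CENPM, CDCA2, BIRC5, KNL1, FOXM1 and UBE2C had no entry in the promoter table. With the canonical start in place of the RefSeq start, a choice made after the data were seen, the hg38 sequence of 49 of all 59 members (83.1%) held TTTGAA, against 11.3% of other genes.

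An E2F word (TTTCCCGC, TTTGGCGC, TTTGCCGC or TTTCGCGC) was found in 4 of 49 members (8.16%, 3.22 to 19.2%): CDK1, CENPA, KIF15 and NUSAP1. The share among other promoters was 4.43%. The GC box GGGCGG was present in 73.5% of members (59.7 to 83.8%) against 58.5% of the others. TATAAA was in 6.12% (2.10 to 16.5%) against 9.64%, in NUSAP1, ASPM and TOP2A. Among other promoters with an H3K4me3 region, as all members have, the shares were 5.24% for E2F words, 68.2% for the GC box and 6.43% for TATAAA. Each of these lies within the members' interval, so members did not differ from them beyond counting error. Among others of like GC content the GC box share was 56.2%, which lies below the members' interval, as does the 58.5% of all other promoters.

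The same words were counted in 3 other gene lists. TTTGAA was in 1 of 43 replication promoters (2.33%, 0.412 to 12.1%) and in 3 of 37 promoters of DNA damage and repair genes (8.11%, 2.80 to 21.3%), both below the members' interval. The E2F words showed the opposite order, with 18 of 43 replication promoters (41.9%, 28.4 to 56.7%) and 8 of 37 repair promoters (21.6%, 11.4 to 37.2%). In a further list of 62 promoters of other mitotic genes, the TTTGAA share, 38.7% (27.6 to 51.2%), lay between those of the members and the replication genes. CCAAT separated the lists less. It was in 59.7% (47.3 to 71.0%) of the other mitotic promoters, 55.8% (41.1 to 69.6%) of replication promoters and 43.2% (28.7 to 59.1%) of repair promoters. These 3 intervals overlap one another. The members' interval (64.1 to 87.0%) overlaps those of the other mitotic and replication promoters but lies above that of the repair promoters.

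**Figure D2:**
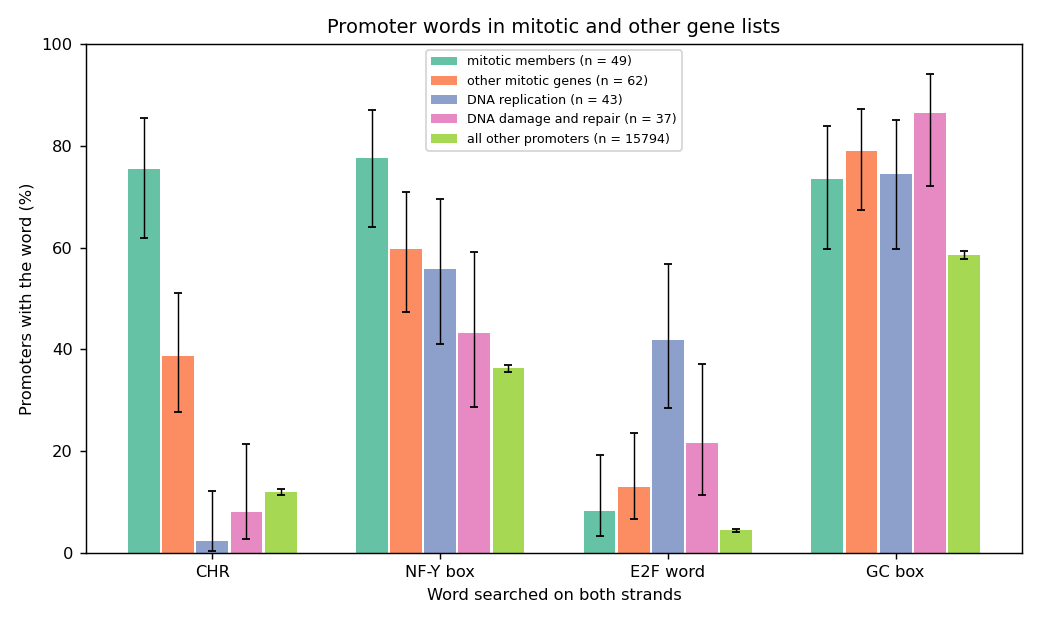
Share of promoters (%) with each word on either strand, for 49 mitotic members, 62 other mitotic genes, 43 DNA replication genes, 37 DNA damage and repair genes and 15794 other promoters; error bars are 95% Wilson intervals. The CHR is in 75.5% of members and 2.33% of replication promoters, while E2F words are in 8.16% and 41.9%.

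H3K4me3 at the members was broader and higher than at most promoters. The median mean normalized count of the 59 regions was 76.5 (quartiles 56.9 and 133), against 49.1 over the 14509 other promoters, and 52 of 59 lay above that value. The median width was 3344 bp against 2492 bp, with 49 of 59 above, and the median count per kb was 24.4 (quartiles 18.8 and 32.0) against 19.0, with 44 of 59 above. In the top 10% of other promoters by mean lay 15 members, and in the lowest 25% only BIRC5. Of the other protein-coding genes, 74.0% had a promoter region at all. The other promoters were counted by gene, so a region shared by several genes counted for each. They included the genes that share a region with a member.

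Width and count per kb were then set beside promoters of like mean. For each member, these were the other promoters whose mean differed from its own by at most 25% of the smaller of the pair, between 113 and 2831 promoters. Beside them, 35 of 59 members were wider than the median and 26 of 59 had a higher count per kb. These are not separate results, because at a like mean a wider region has a lower count per kb. Mean and width rose together over the 59 members (Spearman's rho 0.69, against 0.87 over the other promoters), a description across genes that share the same libraries. Count per kb also rose with width (rho 0.23 in members, 0.48 over the other promoters). The higher count per kb of the members is therefore not free of their greater width.

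**Figure D3:**
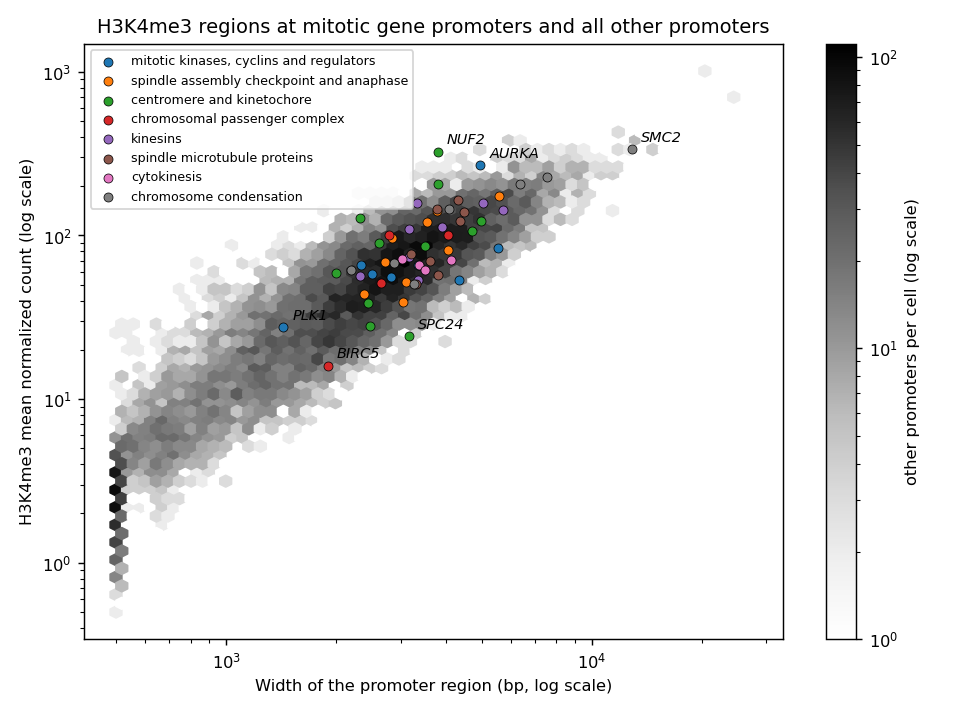
Width of the promoter region (bp) against its H3K4me3 mean normalized count, both on log scales, for 59 members (coloured by role) over the density of 14509 other promoters (grey hexagons). Members lie mostly in the upper right part of the cloud, from BIRC5 at 16.04 to SMC2 at 338, and NUF2 lies above nearly all promoters of its width.

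Member regions were poorer in GC than other promoter regions, with a median of 46.3% against 51.4%, and 49 of 59 were below the latter. CpG dinucleotides numbered 3.23 per 100 bp against 3.80. Regions of the related lists lay between in GC content, with medians of 49.0% (other mitotic genes), 49.1% (DNA replication) and 49.1% (DNA damage and repair). Beside promoters of similar mean, 16 of 59 members had a GC content above the median. The lowest GC content was 38.7%, at CDK1, and the highest 60.0%, at PLK1. Count per kb fell with GC content in members (rho -0.38) as in the other promoters (rho -0.36).

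Among the mitotic kinases, cyclins and regulators (8 genes, median 19.7 per kb), AURKA stood apart. Its region is also the promoter region of CSTF1, so the level cannot be assigned to AURKA alone. AURKA, the kinase of centrosome maturation and spindle poles, had a region of 4955 bp at chr20:56390396-56395351 with a mean normalized count of 268, which is 54.1 per kb and higher per kb than at 98.8% of other promoters. The lowest in this role was MKI67, the surface coat protein of mitotic chromosomes known as Ki-67, with 53.2 over 4332 bp at chr10:128123393-128127725, or 12.3 per kb. CDK1, the kinase that drives entry into mitosis, had a mean normalized count of 84.1, spread over 5549 bp of which 4264 bp lay downstream of the start, and so 15.1 per kb. Its partner cyclins had counts of 58.3 (CCNB1) and 65.7 (CCNB2). The counts were 27.6 at PLK1, the polo kinase, 65.9 at CDCA3 and 55.4 at FOXM1, the transcription factor of late cell cycle genes. PLK1 had the narrowest region of all members, 1434 bp, with 2 further weak regions inside its window.

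The spindle assembly checkpoint delays anaphase until all chromosomes are attached, and its genes were counted here with those of anaphase onset (9 genes, median 25.2 per kb). SGO1, the shugoshin that shields centromeric cohesin, was highest, with a mean normalized count of 141 over 3760 bp at chr3:20184062-20187822, or 37.6 per kb. BUB3, a checkpoint adaptor, was lowest, with 39.1 over 3049 bp at chr10:123153457-123156506, or 12.8 per kb. The kinase-like BUB1B (mean normalized count 121, 34.2 per kb) and the inhibitor MAD2L1 (174, 31.2 per kb) lay above the members' median of 24.4 per kb. The kinases BUB1 (52.3, 16.8 per kb) and TTK (82.0, 20.3 per kb) lay below it. Mean normalized counts were 68.5 at CDC20, the activator of the anaphase-promoting complex, and 43.6 at UBE2C, its ubiquitin-conjugating enzyme. PTTG1, the securin, was given a region with a mean normalized count of 96.3 that ended 1392 bp before its canonical start and is shared with SLU7, while a second region, covering the start, had 75.7 over 2528 bp, or 29.9 per kb.

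The 11 centromere and kinetochore genes spanned the whole range of the list, with a median of 24.6 per kb. NUF2, a subunit of the NDC80 complex that grips microtubules, was highest of all 59, with a mean normalized count of 325 over 3791 bp at chr1:163320240-163324031, or 85.8 per kb, above 99.95% of other promoters. SPC24, a subunit of the same 4-protein complex, was lowest of all 59 per kb, with 24.2 over 3168 bp at chr19:11154486-11157654, or 7.63 per kb. The other 2 subunits lay between, NDC80 with a mean normalized count of 122 (24.4 per kb) and SPC25 with 58.97 (29.5 per kb). The promoter regions of a single complex thus differed 11.2-fold in H3K4me3 per kb, but the NUF2 and NDC80 regions are also those of RGS5 and METTL4, and the difference between SPC25 and SPC24, the 2 subunits with a region of their own, was 3.87-fold.

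CENPE, the kinesin-like motor of the kinetochore, and CENPK, of the inner kinetochore, were next, with mean normalized counts of 127 and 206 and with 54.8 and 54.3 per kb. KNL1, the scaffold for checkpoint kinases, had a mean normalized count of 90.2 and CENPF, a large kinetochore protein, had 86.0. CENPA, the centromeric histone H3 variant, had 38.6 (15.8 per kb), less than HJURP, the chaperone that deposits it, at 107 (22.8 per kb). CENPM had 28.0. NUF2, CENPE and CENPK were the 3 members with more than 1.5 times the median count per kb of promoters of similar mean, the values being 38.4 for NUF2, 29.5 for CENPE and 33.5 for CENPK. SPC24, CDK1 and MKI67 were the 3 below that median by more than 1.5 times. At a like mean, a high count per kb restates a narrow region and a low count per kb a wide region.

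**Figure D4:**
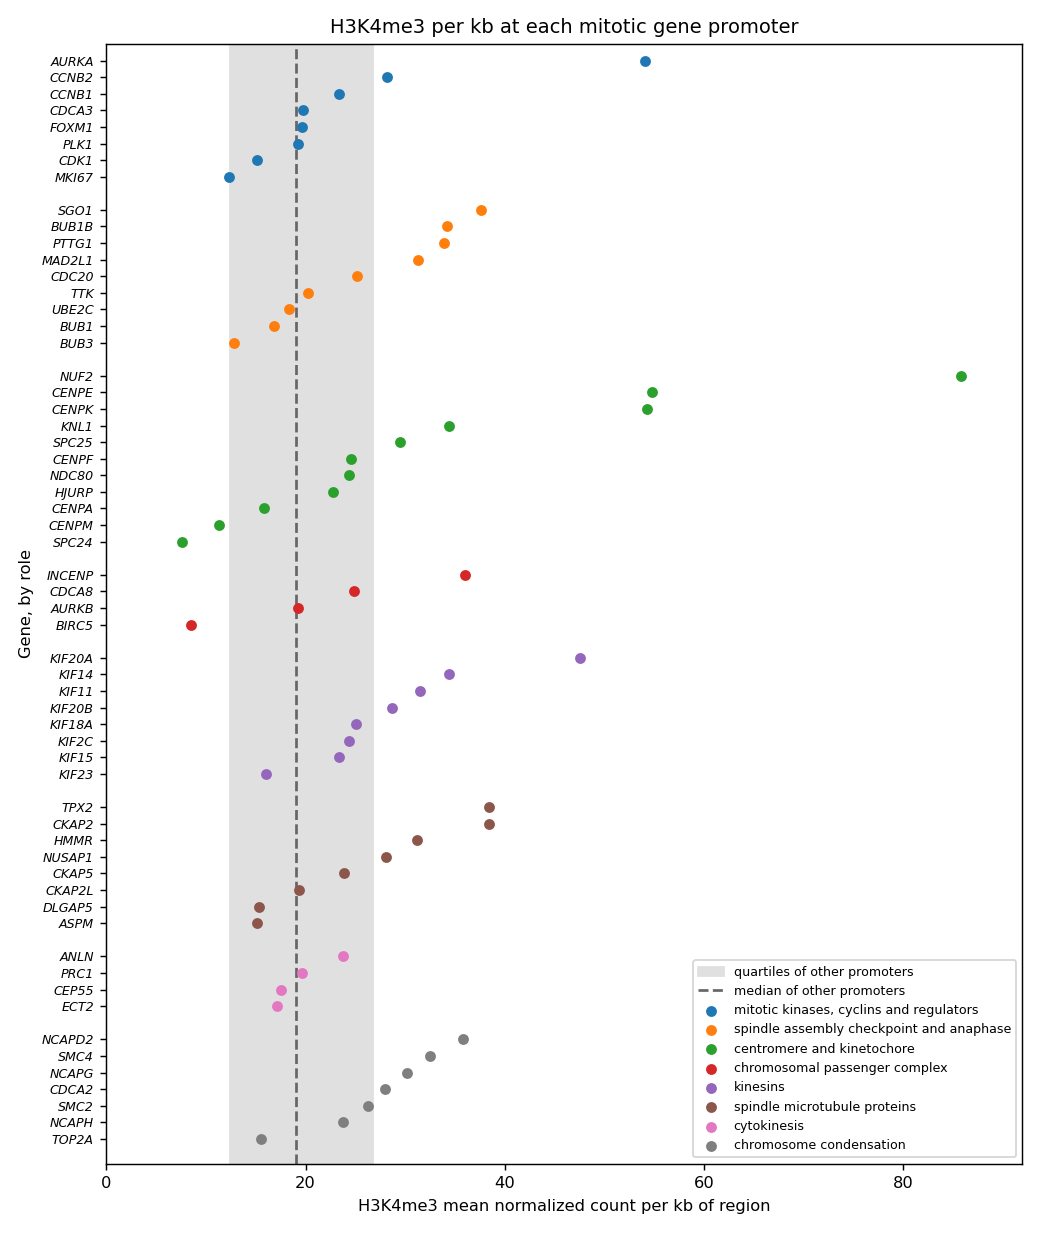
H3K4me3 mean normalized count per kb of the promoter region for each of the 59 members, grouped and coloured by role; the grey band and dashed line are the quartiles (12.4 and 26.7) and the median (19.0) of other promoters. The kinetochore genes spread from 7.63 (SPC24) to 85.8 (NUF2), and the cytokinesis genes stay between 17.2 and 23.8.

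The chromosomal passenger complex corrects faulty attachments and later guides division, and its 4 genes did not share a level (median 22.0 per kb). INCENP, the scaffold, was highest, with a mean normalized count of 100.2 over 2783 bp at chr11:62123172-62125955, or 36.0 per kb. BIRC5, the small subunit known as survivin, was lowest, with 16.04 over 1899 bp at chr17:78213951-78215850, or 8.45 per kb, the lowest mean of all members. CDCA8, or borealin, had a mean normalized count of 100.4, and the kinase AURKB had 50.9.

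The kinesins, motors that move along microtubules, had a median mean normalized count of 110.5 and a median of 26.9 per kb over 8 genes. KIF20A, needed at the central spindle, was highest with 158 over 3332 bp at chr5:138177302-138180634, or 47.5 per kb, in a region shared with BRD8. KIF23, its neighbour in the central spindle, was lowest with 53.7 over 3344 bp at chr15:69413124-69416468, or 16.1 per kb. KIF11, the motor that pushes spindle poles apart, had a mean normalized count of 159. The remaining kinesins had counts of 109 (KIF14), 73.7 (KIF15), 143 (KIF18A), 112 (KIF20B) and 56.5 (KIF2C).

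Of the spindle microtubule proteins (8 genes, median 26.0 per kb), TPX2, the activator of AURKA, was highest, with a mean normalized count of 166 over 4311 bp at chr20:31737866-31742177, or 38.4 per kb. CKAP2 had the same 38.4 per kb to the digits given, with a mean normalized count of 145 over 3778 bp. ASPM, a spindle pole protein, was lowest, with 57.2 over 3785 bp at chr1:197143807-197147592, or 15.1 per kb. The mean normalized counts of the others were 69.6 (CKAP2L), 76.5 (CKAP5, a microtubule polymerase, at the median of the list), 50.8 (DLGAP5), 139 (HMMR) and 122 (NUSAP1). All 8 regions were at least 3203 bp wide.

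The 4 cytokinesis genes were the most alike, between 17.2 and 23.8 per kb. ANLN, the anillin of the contractile ring, was highest, with a mean normalized count of 71.8 over 3023 bp at chr7:36389960-36392983, shared with MATCAP2. ECT2, which switches on RhoA at the cleavage site, was lowest, with 70.5 over 4108 bp at chr3:172748903-172753011. PRC1, the bundler of central spindle microtubules, had 66.3, and CEP55, of the abscission step, had 61.4.

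The chromosome condensation genes (7 genes, median mean normalized count 146, median 28.0 per kb) held the 3 widest regions of the list. SMC2, the core ATPase of both condensins, had the highest mean of all members, 338, over 12890 bp at chr9:104086795-104099685, yet 26.2 per kb. Its partner SMC4 had a mean of 206 over 6362 bp and NCAPG, a condensin subunit, had 228 over 7553 bp. NCAPD2 was highest per kb, with 146 over 4075 bp at chr12:6492004-6496079, or 35.8 per kb, in a region shared with MRPL51. TOP2A, which untangles sister DNA, was lowest, with 50.7 over 3258 bp at chr17:40415511-40418769, or 15.6 per kb. NCAPH had a mean of 68.2 and CDCA2, a phosphatase adaptor on chromatin, had 61.4.

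The regions sat over the start sites. The canonical start lay inside the region in 57 of 59 members (96.6%), against 66.0% of other promoters, the exceptions being ANLN, by 98 bp, and PTTG1. The related lists lay between, with 83.3% of other mitotic genes, 91.7% of DNA replication genes and 86.4% of DNA damage and repair genes. The median extent was 1414 bp upstream and 1980 bp downstream of the start, against 1107 and 1679 bp. Of the 57, 40 (70.2%) extended farther downstream than upstream, close to the 71.8% of other promoters. Several regions in the window were found in 11 members (18.6%), against 37.2% of other promoters. The shares were 31.9% in other mitotic genes, 29.2% in DNA replication genes and 27.3% in DNA damage and repair genes.

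**Figure D5:**
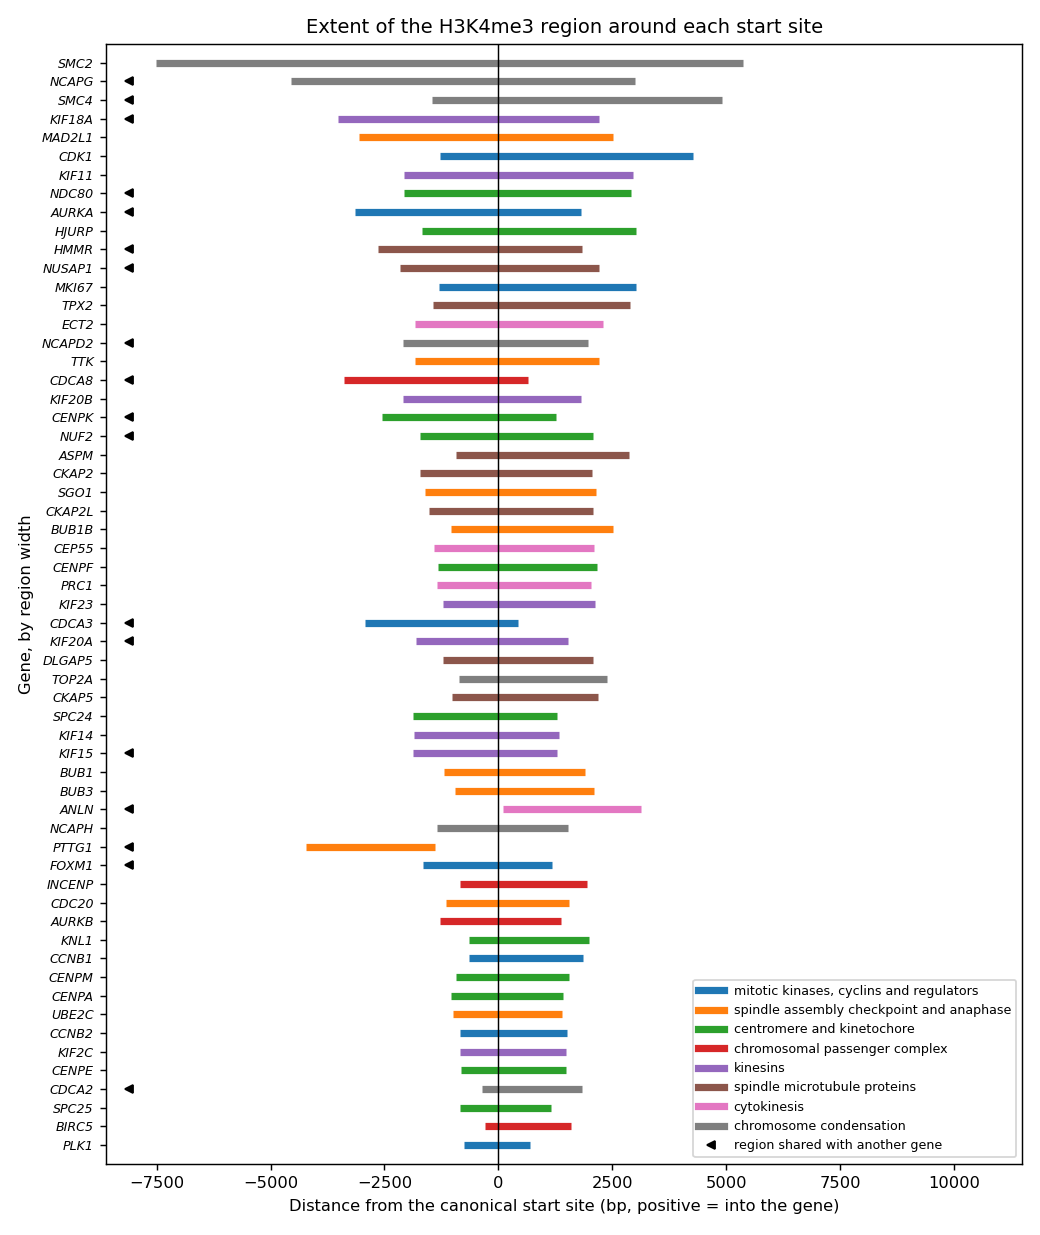
Extent of the promoter region of each of the 59 members around its canonical start site (bp, positive into the gene), sorted by width and coloured by role; arrowheads mark the 18 regions shared with another protein-coding gene. SMC2 spans 12890 bp and PLK1 1434 bp, and ANLN and PTTG1 do not cover the start.

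In 18 of 59 members (30.5%) the same region was also the promoter region of another protein-coding gene, against 23.0% of other promoters. The share was higher in the related lists, 34.7% in other mitotic genes, 37.5% in DNA replication genes and 40.9% in DNA damage and repair genes. All 18 pairs were head to head, with the nearest start sites of the pair at most 862 bp apart, and H3K4me3 in such a region cannot be assigned to either gene. The pairs were AURKA with CSTF1, NDC80 with METTL4, NUF2 with RGS5, CENPK with PPWD1, KIF15 with KIAA1143, KIF18A with METTL15, KIF20A with BRD8, ANLN with MATCAP2, HMMR with NUDCD2 and NUSAP1 with OIP5. The remaining pairs were CDCA2 with KCTD9, CDCA3 with USP5, CDCA8 with C1orf109, NCAPD2 with MRPL51, NCAPG with DCAF16, SMC4 with IFT80, FOXM1 with RHNO1 and PTTG1 with SLU7. AURKA and CSTF1, a subunit of the mRNA cleavage factor, began 34 bp apart, and SMC4 and IFT80, a ciliary transport protein, 1 bp apart. NUF2 and RGS5 began 99 bp apart at an upstream start of RGS5.

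Members with a shared region had higher levels. Their median was 29.1 per kb and their median mean normalized count 131, against 22.8 per kb and 68.2 for the 41 members with a region of their own. Of the 10 members within the top 10% of other promoters by count per kb, 5 were shared. Of the 5 members with the highest counts per kb, NUF2, CENPK, AURKA and KIF20A were shared and CENPE was not. The same split was not made for the other promoters, so whether this difference is particular to the members was not tested.

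Levels were also set beside the words. The median was 24.6 per kb in the 37 members with TTTGAA and 29.2 per kb in the 12 without, with median mean normalized counts of 84.1 and 82.3. Members with CCAAT had a median of 23.8 per kb (38 genes) and those without had 30.2 per kb (11 genes).

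Levels in the related lists were close to those of the members. The median count per kb was 22.7 in the 72 other mitotic genes (6.74 at PKMYT1 to 62.8 at FZR1), 22.8 in 48 DNA replication genes and 26.6 in 44 DNA damage and repair genes, beside 24.4 in the members and 19.0 in all other promoters. All 72 and all 44 genes of the first and last lists had a promoter region, and of 49 replication genes CDT1 did not. Median widths were 3048, 3147 and 3270 bp, near the 3344 bp of the members. OIP5, counted among the other mitotic genes, has the same region as the member NUSAP1.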

How the data were processed

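H3K4me3 was measured in EndoC-βH3 cells, 4 samples of each state, while 16 samples of H3K27me3 and H3K9me3 were not analysed here. Groups were taken from the sample titles. The authors used Bowtie2 for alignment to hg38, then samtools, HOMER to find peaks and DESeq2 for the comparison of states. The merging of peaks into 1 set of regions, the counting of reads and the treatment of duplicates are not given in the sources used here.

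The values used are the deposited signal of each of 97545 regions, which is the authors' mean over samples of counts normalized in DESeq2, called the mean normalized count here. The table does not state over which samples the mean runs, and it was read as all H3K4me3 samples. The other deposited columns hold the authors' own comparison of the states (log2 fold change, its standard error, the test statistic and p-values) and were not used, so no difference between states is reported. The number of columns with a value per sample was 0, and depth per sample is unknown. Regions differ in width, from 346 bp, and 37.1% were exactly 500 bp wide, so levels were divided by width.

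Start sites of protein-coding transcripts came from GENCODE 44, and the canonical start is that of the transcript tagged Ensembl canonical. A gene took the region with the highest mean within 2 kb of any start. GC content came from hg38, and promoter sequences from the RefSeq table of GRCh38.p14, whose 15843 protein-coding entries were identical to hg38. Words were searched on both strands. Percentiles are among other promoters. Shares have 95% Wilson intervals, which cover counting error only. Scripts ran in Python 3.11.15 with numpy 2.4.6, pandas 2.3.3 and scipy 1.17.1, and the assignment and the word search were tested on simulated data.

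Members and lists were chosen with earlier results of these data known. All 59 members are named, the highest and lowest of each role by count per kb in full, as is each member that shares a region, and sequences were shown for a set of late cell cycle genes named beforehand where RefSeq had them. Alternatives changed the window, the start sites, the region taken, a filter on low means, shared regions, the range of similar means and the sequence window, and canonical starts, CHR variants and sets of like GC or mean were added after the data were seen.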

Additional observations from a re-analysis of the deposited data

How the results depend on the processing

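Of 52 alternatives to 13 results, 49 stayed within the limit set for each. With the 18 shared regions left out, the median mean normalized count of the members fell to 68.2, against 49.1 for the other promoters. Shared regions were left out of the members only, and the other promoters kept theirs. With the start of each gene record in place of the RefSeq start, CCAAT was in 62.7% of member promoters against 35.9% of the others. These record starts cover all 59 members and not the same start sites, and the cause was not tested. With TTTAAA and TTCGAA added after the data had been seen, the CHR share was 91.8% against 20.5%. Within the limit, TTTGAA ranged from 64.4% (others 13.1%) at the gene record starts to 83.1% (others 11.3%) at canonical starts. Canonical starts were also tried after the data had been seen, and there CCAAT was in 78.0% (others 36.0%). From 500 bases before to 100 after the start, TTTGAA was in 81.6% of members against 26.0% of the others. In that window CCAAT was in 81.6% against 53.7%. The share with E2F words, 8.16% as reported, was 4.08% (others 3.13%) from 150 bases before to 50 after the start. It was 5.08% (others 3.82%) at gene record starts, 6.78% (others 4.36%) at canonical starts and 10.2% (others 7.12%) in the longest window. No paired analysis was possible because no value per sample was used, and leaving out a replicate was not possible for the same reason.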

Other observations

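H3K4me3 regions inside the gene but outside the promoter windows were counted in the members and in other genes with a promoter region. Of 59 members, 26 (44.1%) had at least 1 such region, against 55.7% of the 14509 other genes. The members held 49 regions in all, 2.07 per 100 kb of gene, against 3.54 per 100 kb in the other genes. The median gene lengths were 33887 and 35333 bp, but the sets were not matched for length beyond this. Only the count per 100 kb allows for the total length of the genes, and the share with at least 1 region does not. Neither measure was given an interval, and the related lists were not counted. Whether the difference exceeds counting error or is particular to the members was not tested. Within the canonical transcript alone, a span chosen after the data had been seen, 23 members (39.0%) held 39 such regions, 1.83 per 100 kb, against 51.7% and 3.59 per 100 kb. The gene record of NUF2, whose promoter had the highest count per kb, held 7, of which 4, among them the strongest (a mean normalized count of 11.3), lay outside its canonical transcript and 3 inside, while CEP55 and KIF15 each held 4 inside theirs. The strongest among all members lay at the end of NCAPD2, with a mean normalized count of 72.6 over 5096 bp, and is also the promoter region of GAPDH. The next strongest but one was in SGO1, 32.3 over 1256 bp, or 25.7 per kb.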
